A study of Mus musculus with 3 samples.

Results

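The guanylate-binding proteins (GBPs) measured here were Gbp2, Gbp3, Gbp4, Gbp5, Gbp6, Gbp7, Gbp8, Gbp9, Gbp10 and Gbp2b, chosen by gene symbol as 10 of the 32285 features in 3 droplet single-cell RNA sequencing (sc-RNAseq) libraries of mouse colon organoids. No other feature had a Gbp symbol. The organoids were grown from colons of untreated wild-type mice in full medium, and 1 library each was made from untreated organoids, organoids treated with IFN-γ for 24 h and organoids treated with IFN-γ for 48 h, at 50 ng/ml according to the methods of the study. The methods name C57bl/6 mice, beside lineage-tracing strains, as the source of organoid tissue. Mice of the study were 6 to 12 weeks old according to its methods, with no age given for the organoid donors alone. Live cells were sorted by FACS, and the number of organoid lines behind each library was not given in the sources used here. Barcodes with 5000 or more unique molecular identifiers (UMIs, each standing for 1 captured transcript), 400 or more genes and no more than 15% of UMIs from mitochondrial genes were counted as cells. The untreated library had 1058 of them, the 24 h library 917 and the 48 h library 2934, with medians of 33550, 68784 and 10772 UMIs. Between 1 and 4 cell barcodes were shared by any pair of libraries. All 8 epithelial markers were found in each library, and the summed level of 10 stromal markers was at most 3.27 CPM (UMI counts scaled to the library total) and that of 10 immune markers at most 27.5 CPM, nearly all of it Cd14. Since each condition has 1 library, differences were not tested between samples, and every interval below is an exact 95% interval for counting error only.

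GBPs are large GTPases of the dynamin superfamily and are among the best known targets of IFN-γ, which acts through transcription factors such as IRF1. They assemble on the vacuoles and surfaces of intracellular bacteria and parasites, where they break up membranes and expose microbial products to inflammasomes. Some of them carry a lipid anchor added by prenylation, and in the gut epithelium they form part of the defence of the cell itself.

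The members lie in 2 gene clusters of 5 (mm10, positions from GENCODE vM21). Gbp5, Gbp7, Gbp3, Gbp2b and Gbp2 follow each other on the plus strand at chr3:142493978-142638008, a span of 144 kb, and Gbp8, Gbp9, Gbp4, Gbp10 and Gbp6 on the minus strand at chr5:105014150-105293698, a span of 280 kb. All 10 are annotated as protein-coding, and the 3' libraries read the last exons of their transcripts. The last 500 bases of Gbp10 were shared over 100% of their 90-base windows, and those of Gbp6 over 65.5%, with each other or with Gm43302. Reads of Gbp6 and Gbp10 may therefore be lost or split between them. Gm43302 was not among the features, and reads from it may have been counted for Gbp6 or Gbp10. Their levels may thus be too low or too high. The last 500 bases of the other 8 members shared no such window.

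The 250 bases before the RefSeq transcript start (GRCm38.p6, plus strand) were available for the 5 members on chromosome 3 and are shown because they hold the letters through which transcription factors of the interferon response are known to bind. Capitals mark each match to a GAS element (TTCNNNGAA) or to the core of an interferon-stimulated response element (ISRE, TTTC followed by 2 bases of any kind and TTTC), searched on both strands.
Gbp5 (chr3:142496684-142496933): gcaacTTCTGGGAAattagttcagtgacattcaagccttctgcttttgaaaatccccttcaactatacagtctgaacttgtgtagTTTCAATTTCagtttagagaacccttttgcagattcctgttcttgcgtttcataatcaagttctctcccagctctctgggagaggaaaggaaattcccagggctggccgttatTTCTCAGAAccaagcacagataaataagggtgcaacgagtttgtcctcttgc
Gbp7 (chr3:142530086-142530335): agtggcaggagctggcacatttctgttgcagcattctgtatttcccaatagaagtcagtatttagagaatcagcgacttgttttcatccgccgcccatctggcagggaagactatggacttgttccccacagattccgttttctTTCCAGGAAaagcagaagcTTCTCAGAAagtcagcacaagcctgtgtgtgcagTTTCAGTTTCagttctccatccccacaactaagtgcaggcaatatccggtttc
Gbp3 (chr3:142559794-142560043): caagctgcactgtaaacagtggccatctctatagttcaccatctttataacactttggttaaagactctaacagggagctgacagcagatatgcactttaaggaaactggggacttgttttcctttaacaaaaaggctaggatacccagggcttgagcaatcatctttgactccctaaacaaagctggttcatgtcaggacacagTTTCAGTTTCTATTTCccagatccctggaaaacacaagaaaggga
Gbp2b (chr3:142594597-142594846): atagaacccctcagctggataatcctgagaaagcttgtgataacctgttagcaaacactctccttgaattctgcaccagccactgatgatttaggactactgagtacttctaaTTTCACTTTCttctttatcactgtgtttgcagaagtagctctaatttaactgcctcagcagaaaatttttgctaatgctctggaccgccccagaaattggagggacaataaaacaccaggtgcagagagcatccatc
Gbp2 (chr3:142620413-142620662): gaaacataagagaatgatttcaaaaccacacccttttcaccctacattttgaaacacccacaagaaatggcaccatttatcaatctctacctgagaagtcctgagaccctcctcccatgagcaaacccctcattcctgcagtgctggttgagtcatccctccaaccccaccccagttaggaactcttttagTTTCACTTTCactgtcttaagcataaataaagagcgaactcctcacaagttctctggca

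Gbp5 and Gbp7 each held 2 GAS matches and 1 ISRE core. Of the 32851 mouse windows of this length, 7.02% held at least 1 GAS match, 2.98% at least 1 ISRE core and 0.332% at least 1 of each. Gbp3 held 2 overlapping ISRE cores and no GAS match, and a second RefSeq start of Gbp3 held neither. Gbp2, the most abundant member below, and Gbp2b, the member without a UMI, held the same 10 letters, TTTCACTTTC, beginning 59 and 137 bases before their starts. These RefSeq starts differ from the GENCODE spans used for the gene positions. The Gbp5 window lies wholly, and those of Gbp3 and Gbp2 partly, inside the GENCODE span of the gene.

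In untreated organoids GBP transcripts were close to absent, and after IFN-γ 9 of the 10 were higher, at 24 h from 4.77 CPM for Gbp9 up to 571 CPM for Gbp2. The sum over the 10 members was 187 UMIs or 3.75 CPM in untreated cells. After 24 h it was 89788 UMIs or 1263 CPM, and after 48 h 71654 UMIs or 1517 CPM. The log2 ratio to the untreated library was 8.39 (8.19 to 8.61) at 24 h and 8.66 (8.45 to 8.87) at 48 h, for 2 comparisons that share the untreated library. All 9 members with UMIs were at least 16-fold higher at 24 h, where 0.551% of the 17412 genes tested were, and all 9 again at 48 h, where 0.731% of 17376 genes were. The median log2 ratio over these 9, with 2 lower bounds taken at their value, was 8.18 after 24 h and 8.48 after 48 h, beside −0.46 and −0.18 over all genes tested.

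**Figure D1:**
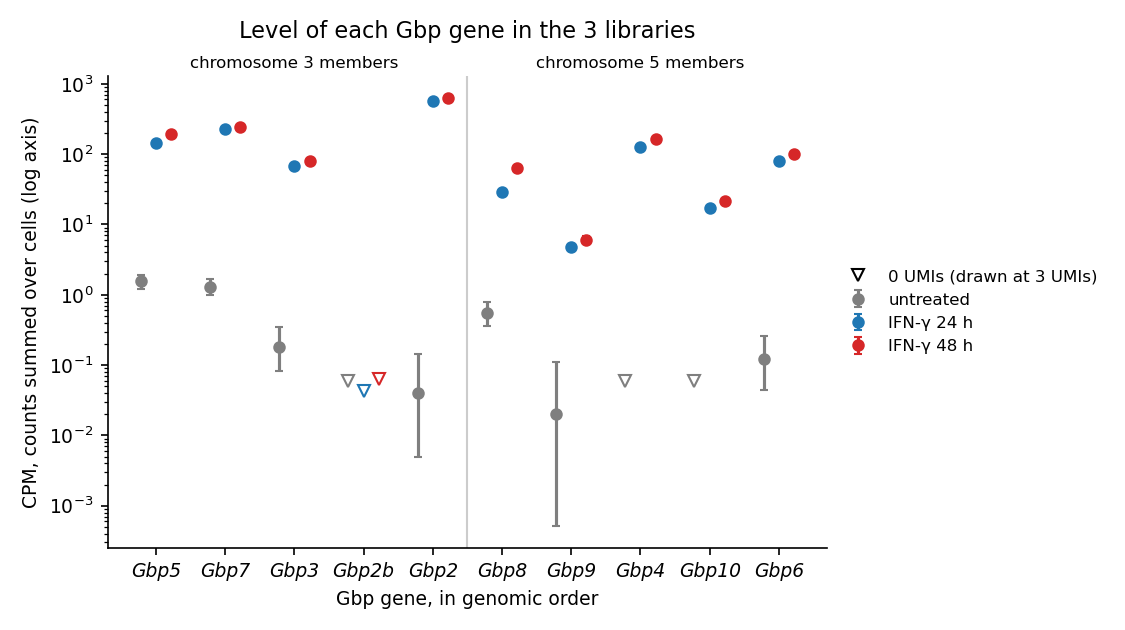
Level of each Gbp gene (CPM of counts summed over cells, log axis) in the untreated, IFN-γ 24 h and IFN-γ 48 h libraries, with exact 95% Poisson intervals and with genes without a UMI drawn as open triangles at 3 UMIs. The untreated points lie at or below 1.55 CPM, and the treated points of 9 genes lie between 4.77 and 639 CPM.

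Gbp2 (chr3:142620602-142638008), which is prenylated and needed for the control of Toxoplasma in mice, had the steepest rise. It had 2 UMIs in untreated cells (0.0402 CPM), 40550 at 24 h (571 CPM) and 30176 at 48 h (639 CPM). Among all genes ranked by level it moved from 18910th place in untreated cells to 235th at 24 h and 189th at 48 h. The log2 ratio of 13.79 (11.94 to 16.84) at 24 h and 13.96 (12.10 to 17.00) at 48 h was the 2nd highest of all genes tested at both times, and its width comes from the 2 untreated UMIs. In treated cells Gbp2 alone gave 45.2% of the GBP UMIs at 24 h and 42.1% at 48 h, against 1.07% in untreated cells.

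Gbp7 (chr3:142530342-142550149) and Gbp5 (chr3:142493978-142522344) had the highest untreated levels, followed by Gbp8. Gbp7, which has been tied to the oxidative defence of phagosomes, had 65 UMIs in untreated cells (1.31 CPM), 16144 at 24 h (227 CPM) and 11416 at 48 h (242 CPM), a log2 ratio of 7.44 (7.09 to 7.82) and 7.53 (7.18 to 7.91). Gbp5, a prenylated GBP linked to activation of the NLRP3 inflammasome, had 77 UMIs in untreated cells (1.55 CPM), 10084 at 24 h (142 CPM) and 9280 at 48 h (196 CPM), a log2 ratio of 6.52 (6.20 to 6.86) and 6.99 (6.67 to 7.33). The order of Gbp7 and Gbp5 depended on the untreated cells used. Their intervals did not overlap at 24 h, but 34 of the 77 untreated Gbp5 UMIs came from 1 cell, and in cells with at least 10000 UMIs, which leaves that cell out, Gbp5 stood at 7.35 (6.92 to 7.83) and Gbp7 at 7.41 (7.06 to 7.79). The intervals also overlapped without the 5% deepest cells, at 6.61 (6.25 to 6.99) and 7.27 (6.91 to 7.66), and in cells of 10000 to 40000 UMIs Gbp5 was the higher, at 8.84 (7.29 to 11.12) against 6.01 (5.51 to 6.56). That last range includes 1 untreated cell of 25789 UMIs with 19 of the 65 untreated Gbp7 UMIs. The part of this cell in the reversed order was not tested. Together with Gbp8 they held most untreated GBP UMIs, with shares of 41.2% for Gbp5, 34.8% for Gbp7 and 14.4% for Gbp8, and these shares fell to 11.2%, 18% and 2.27% at 24 h.

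Gbp3 (chr3:142560026-142573209), whose protein is found on Toxoplasma vacuoles, had 9 UMIs in untreated cells (0.181 CPM), 4838 at 24 h (68.1 CPM) and 3771 at 48 h (79.8 CPM). Its log2 ratio was 8.56 (7.63 to 9.69) at 24 h and 8.79 (7.86 to 9.92) at 48 h. Gbp2b (chr3:142594847-142619179), the gene also known as Gbp1, had no UMI in any cell, and none in any barcode of the 3 files, cells or not. A count of 0 allows up to 0.0741 CPM in untreated cells, 0.0519 CPM at 24 h and 0.0781 CPM at 48 h, while its neighbours Gbp3 and Gbp2 on the chromosome were both induced.

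Of the members on chromosome 5, Gbp4 (chr5:105115767-105139586) was the most abundant. It had no UMI in untreated cells, 8903 at 24 h (125 CPM) and 7888 at 48 h (167 CPM), which is at least 2079-fold higher at 24 h and at least 2772-fold higher at 48 h against a floor of 3 counts in the untreated library (log2 ratios of at least 11.02 and 11.44). Gbp10 (chr5:105215699-105239533) also had no untreated UMI, with 1239 at 24 h (17.4 CPM) and 1017 at 48 h (21.5 CPM), at least 289-fold and 357-fold higher. Across all barcodes of the untreated file, cells or not, Gbp4 had 1 UMI and Gbp10 none.

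Gbp6 (chr5:105270702-105293698), another GBP seen on Toxoplasma vacuoles, had 6 UMIs in untreated cells (0.120 CPM), 5650 at 24 h (79.5 CPM) and 4796 at 48 h (102 CPM), a log2 ratio of 9.37 (8.24 to 10.81) and 9.72 (8.60 to 11.17). Gbp9 (chr5:105077630-105139539), a further vacuole GBP, had 1 UMI in untreated cells (0.0201 CPM), 339 at 24 h (4.77 CPM) and 287 at 48 h (6.07 CPM), with ratios of 7.89 (5.40 to 13.20) and 8.24 (5.75 to 13.55). It was the lowest of the induced members. Gbp8 (chr5:105014150-105139540) had 27 UMIs in untreated cells (0.542 CPM), 2041 at 24 h (28.7 CPM) and 3023 at 48 h (64.0 CPM), a ratio of 5.73 (5.18 to 6.33) and 6.88 (6.34 to 7.49). The spans of Gbp8, Gbp9 and Gbp4 overlap on the same strand, while their last 500 bases lie in no exon of another feature.

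The order of induction at 24 h ran Gbp2, Gbp4, Gbp6, Gbp3, Gbp10, Gbp9, Gbp7, Gbp5 and Gbp8, with Gbp4 and Gbp10 placed by their lower bounds. Among the 7 with a ratio, neighbours whose intervals did not overlap were Gbp2 over Gbp6 at both times and Gbp7 over Gbp5 at 24 h, of which the second was lost with at least 10000 UMIs as given above. The intervals of the other neighbours overlapped. With all cells counted, the least induced members, Gbp8, Gbp5 and Gbp7, were the 3 with the highest untreated level, which is the denominator of the ratio.

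**Figure D2:**
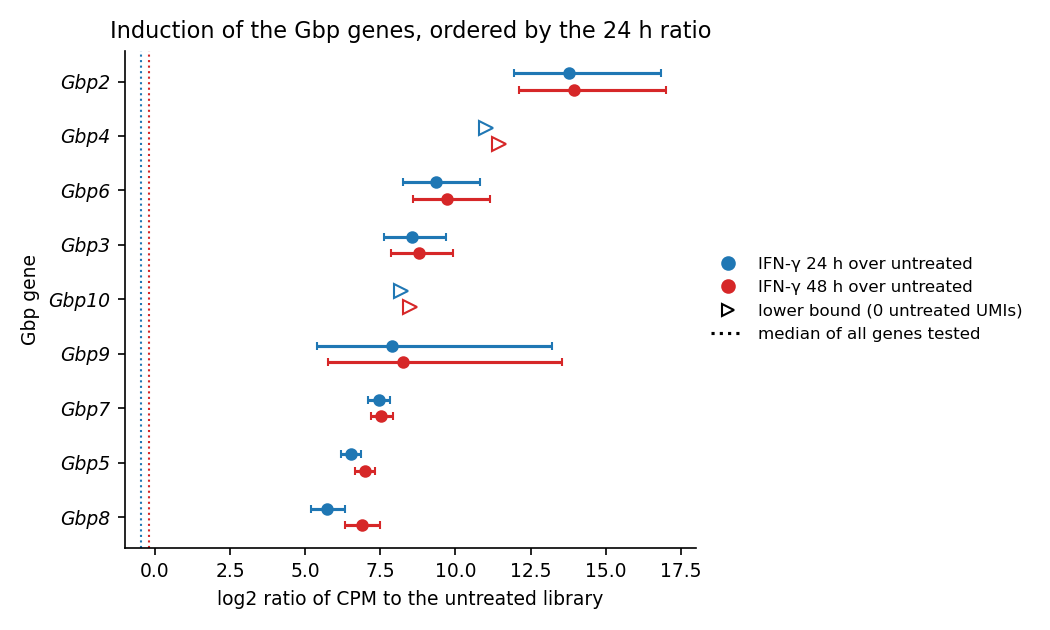
Log2 ratio of CPM to the untreated library for the 9 Gbp genes with UMIs at 24 h (blue) and 48 h (red), with exact 95% intervals, open triangles for lower bounds and dotted lines for the median of all genes tested (−0.46 and −0.18). All 9 lie at 5.73 or higher, with Gbp2 at 13.79 and 13.96.

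The untreated GBP UMIs came from 74 of 1058 cells, and 2 of these cells held 59 of the 187. The first, with 6178 UMIs in all, held 34 UMIs of Gbp5 and of no other member. It fell in the shallow unnamed cluster 7 and also held 72 UMIs of Cacna1d, a calcium channel gene, which had 134 UMIs in the other 1057 untreated cells together. The second, with 25789 UMIs, was in the colonocyte-like cluster and had UMIs of 11 of 12 colonocyte markers, 19 UMIs of Gbp7, 5 of Gbp3 and 1 of Gbp2. That cell also held 118 UMIs of Ifit1, 72 of Ifit3 and 33 of Rsad2, 3 antiviral genes of the interferon response that had 62, 52 and 37 UMIs in all other untreated cells. Both cells and these genes were singled out after their values were seen, and neither barcode was that of a cell in a treated library. Without both cells the untreated sum was 128 UMIs or 2.57 CPM and the log2 ratios of the family were 8.94 at 24 h and 9.20 at 48 h. Both lie above the intervals given for all cells, which do not cover an uneven spread of UMIs over cells.

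To compare cells of unequal depth, each cell was thinned at random to 5000 UMIs. At that depth 8 of 1058 untreated cells had a UMI of any member, or 0.756% (0.327 to 1.48%), against 98.1% (97.0 to 98.9%) at 24 h and 99.3% (98.9 to 99.5%) at 48 h. At the same depth a median cell held 6 GBP UMIs at both 24 h and 48 h and none when untreated, and 17 cells at 24 h and 22 at 48 h held none. Without thinning, the shares of cells with a GBP UMI were 6.99%, 99.9% and 99.9%.

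**Figure D3:**
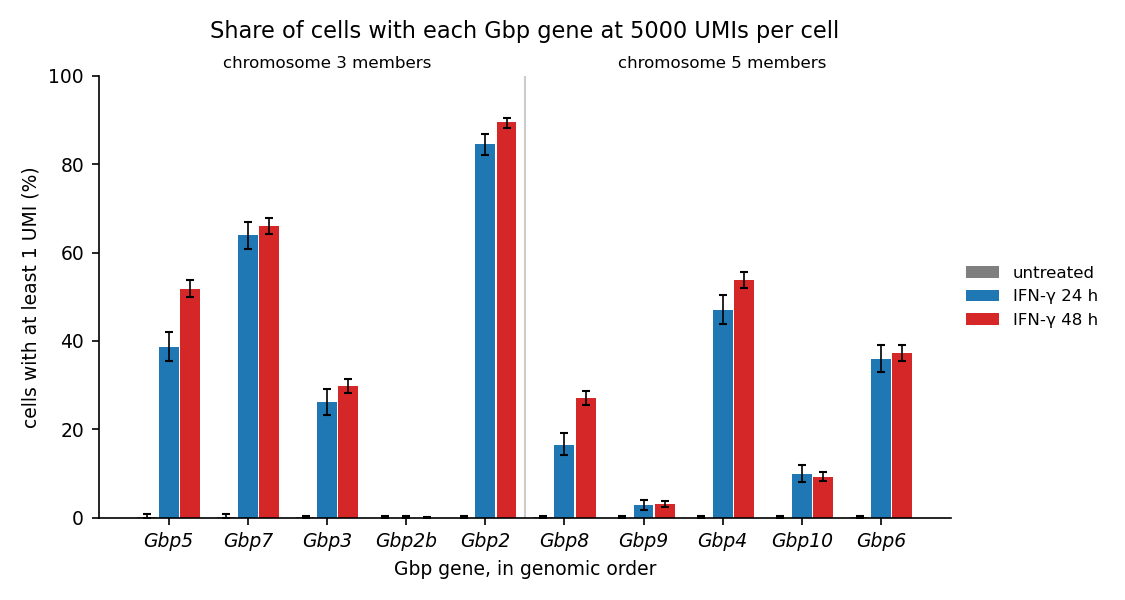
Share of cells with at least 1 UMI of each Gbp gene after thinning every cell to 5000 UMIs, with exact 95% intervals. Gbp2 reaches 84.5% at 24 h and 89.4% at 48 h, Gbp9 stays near 3%, Gbp2b is at 0, and the untreated bars are all below 0.3%.

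Gbp2 was found in 84.5% of cells at 24 h and 89.4% at 48 h, and Gbp7 in 63.9% and 66.0%. Gbp4 followed with 47.1% and 53.8%, Gbp5 with 38.7% and 51.9%, Gbp6 with 36.0% and 37.3%, and Gbp3 with 26.2% and 29.8%. The lowest were Gbp8 with 16.6% and 27.1%, Gbp10 with 9.92% and 9.27%, and Gbp9 with 2.84% and 3.03%. Gbp5 and Gbp8 were the members whose shares moved most between 24 h and 48 h, each by over 10 percentage points. No untreated cell held 5 or more different members, while 19.96% of cells did after 24 h and 28.9% after 48 h. A count of 0 of 917 and of 2934 cells for Gbp2b allows a share of up to 0.401% and 0.126%.

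Barcodes taken as background, which may hold free RNA or damaged and shallow cells, carried GBP transcripts in the treated libraries. The shallowest barcode had 1390 UMIs in the untreated file, 851 at 24 h and 1624 at 48 h, so the background covers a different range of depth in each library. Barcodes under 2000 UMIs, taken as background, had 1.10 CPM of the 10 members in the untreated file, 829 CPM at 24 h and 992 CPM at 48 h, so that cells stood 1.52-fold and 1.53-fold above the background of their own library. At 24 h cells stood furthest above it for Gbp5, by 2.06-fold, and least for Gbp10, by 1.24-fold. At 48 h the furthest was Gbp8, by 2.64-fold, and the least Gbp2, by 1.26-fold. Gbp2 stood at 419 and 507 CPM in the background barcodes at 24 h and 48 h, beside 571 and 639 CPM in cells. In cells of 5000 to 10000 UMIs it was below this background, at 345 CPM at 24 h and 488 CPM at 48 h. At 24 h it was also below it in cells of 10000 to 20000 UMIs, at 355 CPM. A share of cells with a GBP UMI is therefore not a share of cells shown to express GBPs. No cell type in these libraries could serve as one that lacks GBPs under IFN-γ, and the part of free RNA in the shares of cells was not tested.

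Between 24 h and 48 h the family as a whole differed by as much as the median gene. Its summed log2 ratio of 48 h over 24 h was 0.26 (0.25 to 0.28), and the median of all 16814 genes tested was also 0.26. With TMM factors in place of library totals the family stood at 0.0029. Of the 9 members, Gbp8 was at least 2-fold higher, as were 11.6% of all genes, and none was at least 2-fold lower, as were 2.31%.

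With all cells counted, Gbp8 was the member with the largest difference, 1.16 (1.07 to 1.24), from 28.7 to 64.0 CPM. The other 8 ranged from 0.09 for Gbp7 to 0.47 for Gbp5, and under TMM the sign turned for Gbp2 (−0.10), Gbp3 (−0.03) and Gbp7 (−0.17) while Gbp8 stayed at 0.90. Among cells of similar depth the picture differed by band. In cells of 40000 to 80000 UMIs the log2 ratio of Gbp8 was 0.86 (0.68 to 1.05), but it was 0.13 (−0.12 to 0.40) at 20000 to 40000 UMIs, 0.09 (−0.19 to 0.39) at 10000 to 20000 and −0.25 (−0.61 to 0.14) at 5000 to 10000.

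The level of some members followed the depth of the cells within a library. At 24 h Gbp8 went from 92.9 CPM in cells of 5000 to 10000 UMIs down through 63.4, 53.6 and 30.5 CPM to 24.8 CPM in cells of 80000 UMIs or more, and Gbp10 from 50.6 to 14.0 CPM. Gbp4 went from 190 to 118 CPM over the same bands. Gbp2 ran the other way, from 345 CPM in the shallowest cells to 671 CPM at 40000 to 80000 UMIs and 553 CPM in the deepest, while Gbp7 stayed between 217 and 264 CPM. At 48 h Gbp8 was again lower in deeper cells, from 78.1 to 55.5 CPM, and Gbp2 higher, from 488 to 707 CPM, whereas Gbp4 stayed between 160 and 176 CPM.

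**Figure D4:**
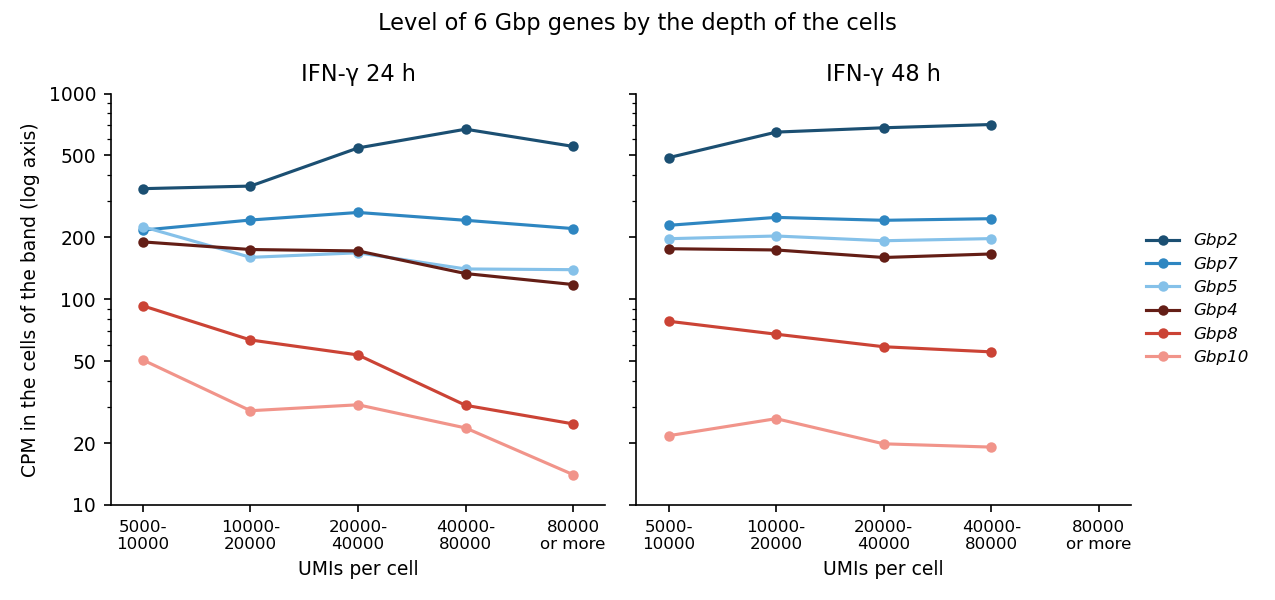
Level (CPM, log axis) of 6 Gbp genes in cells grouped by their UMIs, at 24 h (left) and 48 h (right, where the deepest band held too few cells to draw). Blue lines are chromosome 3 members and red lines chromosome 5 members, and Gbp8 falls from 92.9 to 24.8 CPM at 24 h while Gbp2 goes from 345 to 671 CPM and to 553 CPM in the deepest cells.

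Both gene clusters were induced, and the balance between them depended on the cells compared. The chromosome 3 members gave 153, 71616 and 54643 UMIs in the untreated, 24 h and 48 h libraries, and the chromosome 5 members 34, 18172 and 17011. Their log2 ratios to the untreated library were 8.36 (8.13 to 8.60) and 8.55 (8.07 to 9.08) at 24 h, with overlapping intervals, and 8.56 (8.33 to 8.79) and 9.04 (8.56 to 9.57) at 48 h, overlapping again. The chromosome 3 share of the GBP UMIs was 81.8% (75.5 to 87.1%) without treatment, 79.8% (79.5 to 80.02%) after 24 h and 76.3% (75.9 to 76.6%) after 48 h. In cells of 10000 to 40000 UMIs, of which there were 415, 222 and 1381, it was 91.5%, 70.7% and 77.02%, so the direction between 24 h and 48 h turned. The untreated value there rests on 47 GBP UMIs, 4 of them from chromosome 5. Of the 47, 25 came from 1 cell, all of chromosome 3 members, and the part of this cell in the 91.5% was not tested. Gbp2 alone gave 2, 40550 and 30176 of the chromosome 3 UMIs in the untreated, 24 h and 48 h libraries. After IFN-γ the chromosome 3 sums, ratios and shares therefore rest largely on this 1 gene. They do not give the course of the other chromosome 3 members.

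The chromosome 5 share at 24 h was 35.2% (32.1 to 38.4%) in cells of 5000 to 10000 UMIs and 19.1% (18.8 to 19.5%) in cells of 80000 UMIs or more. The mitochondrial share of UMIs moved with it, at 7.03% and 1.74%, and so did the level of the nuclear RNAs Malat1 and Neat1, at 15314 and 2318 CPM. At 48 h the chromosome 5 share was 28.3% (27.6 to 29.1%) in the shallowest band and 21.9% (21.2 to 22.6%) at 40000 to 80000 UMIs, with mitochondrial shares of 8.79% and 2.83%. The untreated library ran the other way on few UMIs. Its chromosome 5 share was 2.78% of 36 GBP UMIs in the shallowest band and 33.8% of 68 at 80000 UMIs or more. The mitochondrial shares there were 7.92% and 3.14%. Of the 36 UMIs, 34 came from the 1 cell with 34 Gbp5 UMIs. The part of depth and RNA quality in the balance of the gene clusters was not tested.

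GBPs stood above the untreated level in each of the 6 clusters that held at least 20 cells in all 3 libraries. The log2 ratios of the family at 24 h lay between 7.71 (6.34 to 9.59) in the unnamed cluster 5 and 10.01 (9.17 to 11.01) in the unnamed cluster 2. Cells were clustered without the members and without other interferon-linked genes among the variable genes, and clusters were named from marker lists. At 24 h the family level lay between 1119 CPM in the unnamed cluster 5 and 1617 CPM in goblet-like cells, a 1.44-fold range over 7 clusters, and at 48 h between 1337 CPM in the unnamed cluster 0 and 2057 CPM in cluster 5, a 1.54-fold range over 6 clusters. In untreated cells it ran from 1.22 CPM in cluster 2, which was led by the S-phase genes Ung, Ccne2 and Mcm4, to 6.34 CPM in colonocyte-like cells, which include the cell with 25 GBP UMIs. The background barcodes held 829 CPM at 24 h and 992 CPM at 48 h. In cluster 5 at 24 h Gbp2 (343 CPM), Gbp3 (24.7 CPM) and Gbp5 (59.2 CPM) lay below their background of 419, 43.5 and 68.9 CPM. The other members with UMIs lay above theirs there. In cluster 0 at 48 h, with 1365 cells, Gbp2 was also below its background, at 478 CPM (466 to 491) beside 507 CPM. At 24 h so were Gbp2 in cluster 7, at 408 CPM (326 to 504), and Gbp10 in proliferating-like cells, at 12.6 CPM (11.4 to 13.9) beside 14.1 CPM. The part of free RNA in the cluster levels was not tested.

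At 24 h each member with UMIs was spread less evenly over the clusters than the sum. The same held at 48 h except for Gbp3, with a 1.46-fold range beside 1.54-fold for the sum. Gbp8 spanned 7.57-fold and Gbp10 7.15-fold at 24 h, both highest in the unnamed cluster 7, whose 29 cells had a median of 6546 UMIs. Gbp2 was highest in goblet-like cells at 24 h, at 857 CPM (831 to 884), then in colonocyte-like cells at 711 CPM (697 to 726) and in proliferating-like cells at 506 CPM (498 to 514). Among these 3 types Gbp5 was instead highest in the proliferating-like cells, with 89.1 CPM (80.7 to 98.0) in goblet-like, 77.2 CPM (72.4 to 82.2) in colonocyte-like and 148 CPM (144 to 153) in proliferating-like cells, while over all clusters it was highest in the unnamed cluster 0, at 245 CPM (230.2 to 260.3). The proliferating-like cluster was led by the mitotic genes Nusap1, Ube2c and Plk1. The unnamed cluster 2, led by S-phase genes, had 168 CPM of Gbp5 (162 to 174). Gbp7 was highest in goblet-like cells at 352 CPM (335 to 369), against 192 CPM (184 to 199) in colonocyte-like cells, and Gbp8 highest of these 3 types in colonocyte-like cells at 42.3 CPM (38.8 to 46.1).

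At 48 h Gbp2 was highest in colonocyte-like cells, and Gbp5 was again highest of the 3 named types in proliferating-like cells. Gbp2 had 767 CPM (738 to 797) in goblet-like, 955 CPM (933 to 979) in colonocyte-like and 610 CPM (597 to 622) in proliferating-like cells, and Gbp5 147 CPM (134 to 160.3), 167 CPM (158 to 177) and 187 CPM (179.8 to 194). Over all clusters Gbp5 was highest in the unnamed cluster 5, at 339 CPM (309 to 370.4), as was Gbp8, at 149 CPM (129 to 169.9). Gbp7 was again highest in goblet-like cells, at 344 CPM (324 to 364), and Gbp8 was highest of the 3 named types in colonocyte-like cells, at 98.5 CPM (91.3 to 106). The median depth of these 3 types was 60777, 71301 and 97704 UMIs at 24 h and 10870, 20266 and 27219 UMIs at 48 h.

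**Figure D5:**
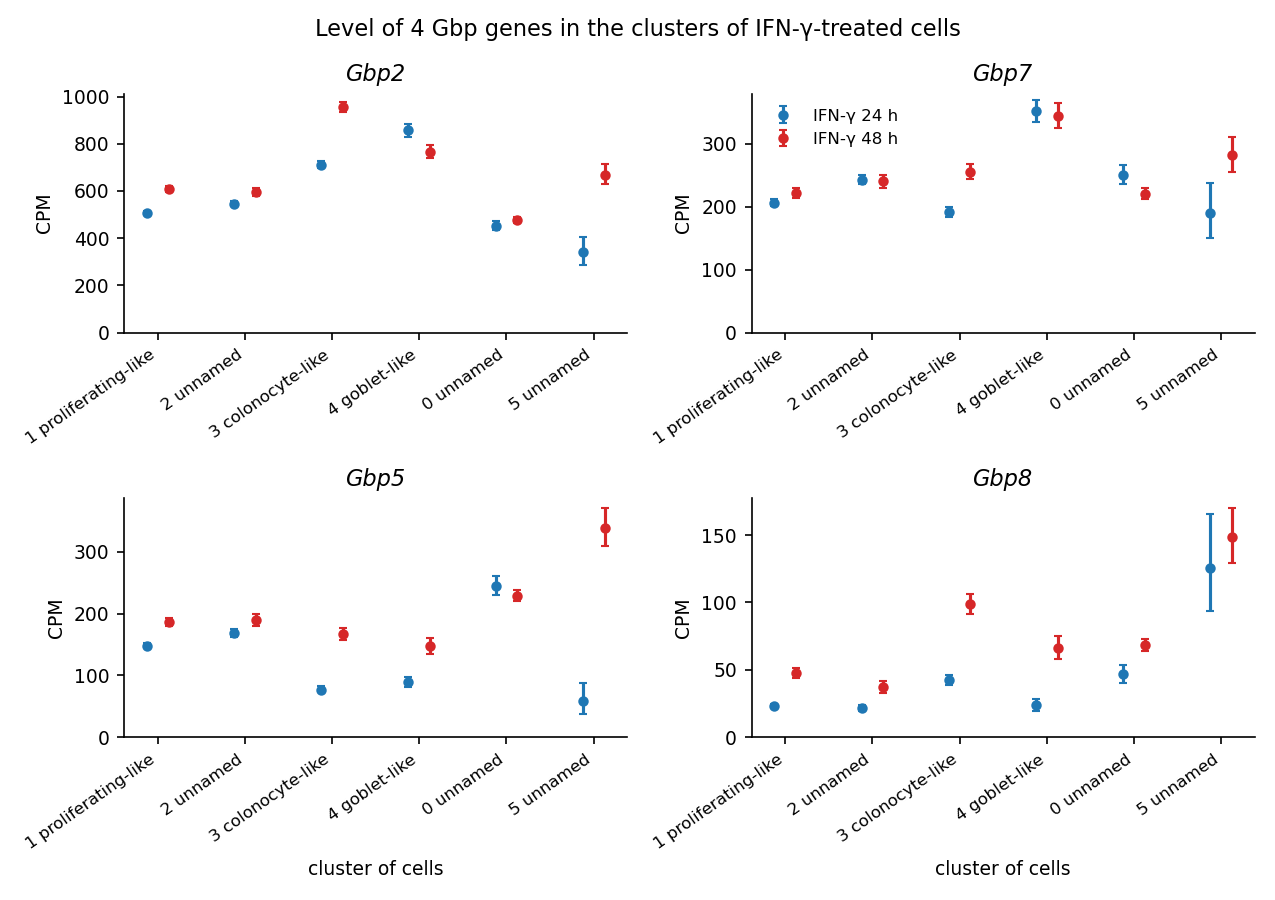
Level (CPM, with exact 95% Poisson intervals) of Gbp2, Gbp7, Gbp5 and Gbp8 in 6 clusters of cells at 24 h (blue) and 48 h (red). Gbp2 and Gbp7 are highest in goblet-like cells at 24 h (857 and 352 CPM), whereas Gbp5 is lower there (89.1 CPM) than in proliferating-like cells (148 CPM).

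From 24 h to 48 h the family differed most in colonocyte-like cells among the named types, with a log2 ratio of 0.55 (0.51 to 0.58), against 0.27 (0.25 to 0.30) in proliferating-like and 0.10 (0.05 to 0.15) in goblet-like cells. In colonocyte-like cells Gbp5 stood at 1.11 (0.99 to 1.24) and Gbp8 at 1.22 (1.05 to 1.39), and in goblet-like cells Gbp2 was at −0.16 (−0.23 to −0.09) while Gbp8 was at 1.49 (1.15 to 1.83). The cells compared differed in depth, with medians at 24 h and 48 h of 71301 and 20266 UMIs in colonocyte-like and 60777 and 10870 UMIs in goblet-like cells. Depth was not matched in these ratios, and its part in them was not tested. Gbp8 was above 0 in 5 of the 6 clusters, by 0.55 to 1.49, and in cluster 5 its interval held 0. Cluster 0, the largest at 48 h with 1365 cells and a median of 7369 UMIs, had a family ratio of −0.03 (−0.07 to 0.02).

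Over 20 units made of a cluster in a library, the genes whose level was most like the family sum were Iigp1 (Pearson r 0.993), Cxcl9 (0.993) and Parp9 (0.991) of 12317 genes. These units share 3 libraries, and within the 7 units at 24 h and the 6 at 48 h no gene was among the first 10 at both times. Igtp and Ifi47 were also among the first 10 over all units.

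The immunity-related GTPases, which act on the same vacuoles as GBPs, were induced as well. Of 7 tested, 6 were at least 2-fold higher at both times, where 3.46% of all genes tested were at 24 h and 5.26% at 48 h, and none was 2-fold lower, where 26.0% and 16.6% were, with medians of 9.53 and 8.60. Both medians are the lower bound of Tgtp1, which had no untreated UMI and is a near-identical copy of its neighbour, so that reads may be lost or split between the copies. Iigp1, an effector that coats vacuoles, had 0.0201 CPM in the untreated library and 1123 and 1116 CPM after 24 h and 48 h, and Igtp, a regulator of such effectors, went from 0.321 to 403 and 431 CPM. The remaining member, Irgq, went from 12 to 6.43 and 9.04 CPM.

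The IFN-γ signalling genes were found on both sides of the untreated level. Of 13 tested, 6 were at least 2-fold higher at both times, beside 3.46% and 5.26% of all genes, and 1 was 2-fold lower, beside 26.0% and 16.6%, with medians of 0.23 and 0.43. The transcription factor Irf1 went from 23.5 CPM to 331 CPM at 24 h, and the feedback inhibitor Socs1 from 1.29 to 79.2 CPM and then 38.3 CPM. The receptor chain Ifngr2 was the 1 lower, from 76.5 CPM to 34.6 and 27.9 CPM. The other 6, which include Irf2 and the remaining feedback inhibitors of the list, lay within 2-fold at both times, between −0.99 and 0.23 at 24 h and between −0.85 and 0.43 at 48 h.

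Most of the inflammasome and pyroptosis genes tested stayed within 2-fold of the untreated level after IFN-γ, while Zbp1 stood higher and Il18 lower. Of 11 inflammasome and pyroptosis genes tested, 1 was at least 2-fold higher and 2 lower at 24 h and 2 higher and 1 lower at 48 h, with medians of 0.64 and 0.50. Over all genes 3.46% were higher and 26.0% lower at 24 h and 5.26% and 16.6% at 48 h, and with 11 genes nothing is read from the count of lower ones. Zbp1, a nucleic acid sensor, went from 1.59 to 83.0 and 91.1 CPM, and Il18, a cytokine that inflammasomes process, from 31.5 to 1.28 and 0.910 CPM. Nlrp3 was not detectable beyond 1 UMI in the 3 libraries. None of the 6 prenylation genes and none of the 10 ATG8 conjugation genes, which help GBPs to reach vacuoles, passed 2-fold in either direction at 24 h or 48 h, beside the same shares of all genes.

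Of 11 other dynamin-type GTPases tested, 1 was at least 2-fold higher and 2 were lower at 24 h, where 3.46% and 26.0% of all genes were, with a median of −0.53 beside the −0.46 of all genes. Mx1 and Mx2 were also on this list of 13 but matched no single feature and were not measured. At 48 h 1 was higher and none lower, where 5.26% and 16.6% were, with a median of −0.15 beside −0.18. The 1 higher was Gvin1, a very large interferon-inducible GTPase, at 0.181 CPM in untreated cells, 4.69 CPM at 24 h and 11.5 CPM at 48 h.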

How the data were processed

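Reads of 3 libraries (10x Genomics 3' v3) were mapped to mm10 with Cell Ranger 6.0.1 according to the submitters' processing notes, and the authors deposited UMI counts per gene and barcode without normalization. The deposited counts still held background barcodes. The annotation release was not given in the sources used here. Cells were kept by the filter in the study's methods (at least 5000 UMIs, 400 genes, at most 15% mitochondrial UMIs), and doublets were kept. Counts were summed over cells and scaled to the library total (CPM). A gene was tested for a comparison with at least 10 UMIs over the 2 libraries. Because 3' libraries count transcript ends, levels were not divided by length. Ratios have exact conditional binomial, levels exact Poisson and shares exact Clopper-Pearson intervals at 95%. These cover counting error only. They cover neither a difference between preparations, nor an uneven spread of UMIs over cells, nor the random draw of the thinning. A gene with 0 UMIs was set to a floor of 3 counts per library. The calculation of the ratio and its interval was tried on simulated data. That trial is not evidence for the intervals of members with few untreated UMIs, such as Gbp2 with 2 and Gbp9 with 1. It is also no evidence where untreated UMIs lay in few cells, such as the 34 of 77 Gbp5 UMIs in 1 cell. Clusters came from Seurat 5.3.0 (CCA over 30 dimensions, 2000 variable genes, 20 principal components, resolution 0.5) and TMM factors from edgeR 4.0.16. Named genes were all 10 members and up to 4 genes of each list; members and lists were chosen with earlier results of these data known. The values of 1 gene of the lists are not reported here. Alternatives were minima of 2000 and 10000 UMIs, at most 10% mitochondrial UMIs, the 5% deepest cells left out, TMM, the mean over cells of CPM, no filter on low counts and other thinning depths, to which cells of 10000 to 40000 UMIs and the omission of 2 untreated cells were added after seeing the data.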

Additional observations from a re-analysis of the deposited data

Results flagged for a closer look

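GBP UMIs were also found in barcodes under the minimum of 5000 UMIs, which the main comparisons between conditions left out, above the level in the untreated library. In barcodes under 2000 UMIs the 10 members reached 829 CPM in the 24 h library and 992 CPM in the 48 h library, against 1.10 CPM in the untreated file. In barcodes of at least 2000 but under 5000 UMIs they reached 1033 CPM in the 24 h library and 1136 CPM in the 48 h library, against 1.58 CPM in the untreated file. At 48 h this middle class was large, with 5109 barcodes and 15151 GBP UMIs, against 249 barcodes and 783 UMIs at 24 h.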

How the results depend on the processing

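The number of members at least 16-fold higher was 9 of 10 at 24 h and 48 h under the alternatives run, except that it was 8 at 48 h in cells of 10000 to 40000 UMIs, where Gbp9 had no untreated UMI and its lower bound was 3.95. The family's log2 ratio to untreated stayed between 7.26 and 8.94 at 24 h and between 7.41 and 9.20 at 48 h. At 24 h and 48 h it was 8.67 and 8.97 with at least 10000 UMIs, 7.26 and 7.41 as the mean over cells of CPM, 7.88 and 8.10 in cells of 10000 to 40000 UMIs, and 8.94 and 9.20 without the 2 untreated cells with most GBP UMIs, and it was 8.84 at 24 h with TMM. The mean over cells includes the untreated cell with 34 GBP UMIs in 6178, which enters at 5503 CPM. The part of this cell in the 7.26 and 7.41 was not tested. The family's ratio of 48 h over 24 h was 0.19 with at least 2000 UMIs, 0.30 with at least 10000, 0.28 with at most 10% mitochondrial UMIs, 0.19 without the 5% deepest cells, 0.0029 with TMM, 0.15 as the mean over cells and 0.23 in cells of 10000 to 40000 UMIs. The sign of 48 h over 24 h turned for Gbp7 with at least 2000 UMIs (−0.0033), for Gbp2 (−0.10), Gbp3 (−0.031) and Gbp7 (−0.17) with TMM, for Gbp10 (−0.16) as the mean over cells, and in cells of 10000 to 40000 UMIs for Gbp4 (−0.070), Gbp6 (−0.21), Gbp7 (−0.060), Gbp9 (−0.77) and Gbp10 (−0.43). The cause was not tested.

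The chromosome 3 share at 48 h was 77.3% with at least 10000 UMIs, 76.6% with at most 10% mitochondrial UMIs and 75.9% without the 5% deepest cells. As the mean over cells it was 76.2% at 24 h and 75.0% at 48 h, in cells of 10000 to 40000 UMIs 91.5%, 70.7% and 77.02% in the untreated, 24 h and 48 h libraries, and without the 2 untreated cells 73.4% in the untreated library. The untreated 91.5% rests on 47 GBP UMIs, 25 of them from 1 cell. The share of cells with a GBP UMI was 85.6% at 24 h and 89.9% at 48 h when thinned to 2000 UMIs, and 3.19%, 100% and 100% in the untreated, 24 h and 48 h libraries when thinned to 10000 UMIs. It was 1.79% in untreated cells without the 5% deepest cells. Leaving cells out also changed the random draw of the thinning. The interval of 0.327 to 1.48% for all untreated cells does not cover differences between draws. No paired analysis was possible because each condition has 1 library and no test was made. Depth limits Gbp4 and Gbp10, with no untreated UMI, to lower bounds, and the ratios of Gbp2 and Gbp9 rest on 2 and 1 untreated UMIs.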
